A study of Mus musculus with 27 samples.

Results

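Activity-induced immediate early genes were measured in nuclei of the mouse motor cortex (MC), across 27 libraries of RNA sequencing. The group holds 46 genes, given as a list of gene symbols that was drawn up with earlier results of these data known, out of 39338 genes and added sequences in the table. All 46 passed the filter on low counts that left 21768 genes for testing. The nuclei carried EGFP-KASH, a green fluorescent protein anchored to the outer nuclear membrane, and were sorted by it. C9-BACexp mice carry a bacterial artificial chromosome with the human C9ORF72 gene and its G4C2 repeat expansion, the mutation linked to amyotrophic lateral sclerosis and frontotemporal dementia, and the C57BL/6J mice were their littermates without it. Mice received crRNA-13, a guide against the repeat-containing C9ORF72 RNA, or NTG, a non-targeting guide, each together with an RfxCas13d effector and EGFP-KASH, or EGFP-KASH only. RfxCas13d is an RNA-guided RNA nuclease, which the study's methods give for both guide groups in its high-fidelity form RfxCas13d-N2V8, while the labels of the NTG libraries name RfxCas13d. The vectors were adeno-associated viruses with the PHP.eB capsid, and the ubiquitous CAG promoter drove the effector and EGFP-KASH. The guide groups were injected in the MC at 6 weeks of age and the nuclei were taken 2 months later, whereas the age and dose of the EGFP-KASH-only mice are not given in the sources used here. There were 6 C9-BACexp libraries with crRNA-13, 6 with NTG and 3 with EGFP-KASH only, and 3, 5 and 4 C57BL/6J libraries with the same treatments in that order.

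Immediate early genes are transcribed within minutes of synaptic activity, without new protein synthesis, when calcium entry activates kinases that act on transcription factors such as CREB and SRF already bound at their promoters. A first set encodes transcription factors (the FOS and JUN proteins of the AP-1 complex, the EGR zinc fingers, the NR4A nuclear receptors and NPAS4). A further set acts at the synapse or outside the cell (Arc, Homer1, Bdnf, Nptx2), and others, with the dual-specificity phosphatases, shut off the mitogen-activated protein kinases (MAPK) that induced them. In the cortex their RNA is widely used as a record of recent neuronal firing.

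The promoters of 3 of the members that passed the test described further on are shown for the element that CREB binds, since it is the best known route from calcium to these genes. The 250 bases before the start site of the canonical transcript were read from the GRCm39 assembly. The cAMP response element (CRE), TGACGTCA, and its core, TGACG, were searched on both strands, and a full CRE holds the core on each strand. Capitals mark the matches.
Vgf, chr5:137058880-137059129, plus strand, a secreted neuropeptide precursor with a full CRE that starts 71 bases before the start site: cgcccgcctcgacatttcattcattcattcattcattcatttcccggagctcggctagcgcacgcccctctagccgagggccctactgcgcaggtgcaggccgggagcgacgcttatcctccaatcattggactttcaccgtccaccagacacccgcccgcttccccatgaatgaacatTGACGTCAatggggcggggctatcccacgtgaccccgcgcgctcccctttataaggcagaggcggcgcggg
Ier2, chr8:85389484-85389733, minus strand, a small nuclear protein with a full CRE that starts 43 bases before the start site: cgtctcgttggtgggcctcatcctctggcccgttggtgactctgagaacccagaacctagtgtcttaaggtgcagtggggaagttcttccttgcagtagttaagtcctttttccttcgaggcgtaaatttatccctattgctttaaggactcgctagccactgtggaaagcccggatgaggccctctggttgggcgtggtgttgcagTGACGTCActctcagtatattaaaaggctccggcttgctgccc
Fosb, chr7:19043977-19044226, minus strand, an AP-1 subunit with the core alone, on either strand: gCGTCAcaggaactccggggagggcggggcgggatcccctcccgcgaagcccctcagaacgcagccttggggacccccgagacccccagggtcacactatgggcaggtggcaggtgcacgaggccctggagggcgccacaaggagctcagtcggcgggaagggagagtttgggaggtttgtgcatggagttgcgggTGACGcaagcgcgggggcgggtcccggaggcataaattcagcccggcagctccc
A full CRE lay in these windows of 9 of the 46 members (19.6%) against 1.7% of 21738 promoters. The core lay in 28 members (60.9%) against 18% of all promoters. The windows of Npas4 and Jun held neither. The AP-1 site TGANTCA lay in 1 member (2.17%, against 6.18% of all promoters) and the serum response element in 3 (6.52% against 1.4%). These are descriptions of letters, not of binding.

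The libraries held 21508829 to 36777972 counts, and 3 counts, the limit that a count of 0 allows, correspond to 0.0801 to 0.144 CPM (counts scaled to a common library total, with TMM normalisation), for counting error only. The human C9ORF72 transcripts, summed, had 64.1 to 99.8 CPM in C9-BACexp mice with crRNA-13, 80.5 to 103 CPM with NTG and 83.6 to 101 CPM with EGFP-KASH only, against 0 CPM in 11 of the 12 C57BL/6J libraries and 0.438 CPM in the other. The defining markers of excitatory cortical neurons were present in every library (summed 1016 to 2168 CPM). Of the C9-BACexp libraries with EGFP-KASH only, replicate 2 stood apart, with 1957 of the tested genes and 3 members at 0, where the other 26 libraries had 368 to 1655 genes and at most 1 member at 0. The 1655 was in replicate 1 of the C9-BACexp crRNA-13 mice, and the next highest library had 1126. That replicate 1 also had the highest sum of oligodendrocyte markers of the 27 libraries, 2673 CPM. Replicate 2 of the crRNA-13 C9-BACexp mice stood apart among the members themselves, and both replicates 2 are treated beside the results they touch. Within pooled nuclei, fewer cells with a transcript and less of it per cell cannot be told apart. The labels number the libraries of a group as replicates without tying them to animals, while the study reports sequencing nuclei from each animal. The p-values measure the spread between these libraries.

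The members were summarised per library as a score, the mean of log2(CPM + 0.5) over the 46 genes. The score was 3.29 ± 0.45 in C9-BACexp mice with crRNA-13 (SD, n = 6), 2.78 ± 0.25 with NTG (n = 6) and 2.90 ± 0.36 with EGFP-KASH only (n = 3). In C57BL/6J mice it was 2.97 ± 0.27 with crRNA-13 (n = 3), 2.81 ± 0.30 with NTG (n = 5) and 3.14 ± 0.15 with EGFP-KASH only (n = 4). Thus the C9-BACexp crRNA-13 libraries had the highest mean and the C9-BACexp NTG libraries the lowest, 0.52 apart, with the 4 other groups in between and all groups overlapping. The C9-BACexp crRNA-13 scores were 3.09, 4.11, 2.80, 3.28, 3.06 and 3.42, and the NTG scores 2.70, 3.14, 2.64, 3.01, 2.71 and 2.46. The value of 4.11, of replicate 2, was the highest of the 27, and 28 of the 46 members had their highest level in that library. Without it the group averaged 3.13 ± 0.23 (SD, n = 5). The lowest score was 2.36, in replicate 5 of the C57BL/6J NTG mice, where 11 members had their lowest level.

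**Figure D1:**
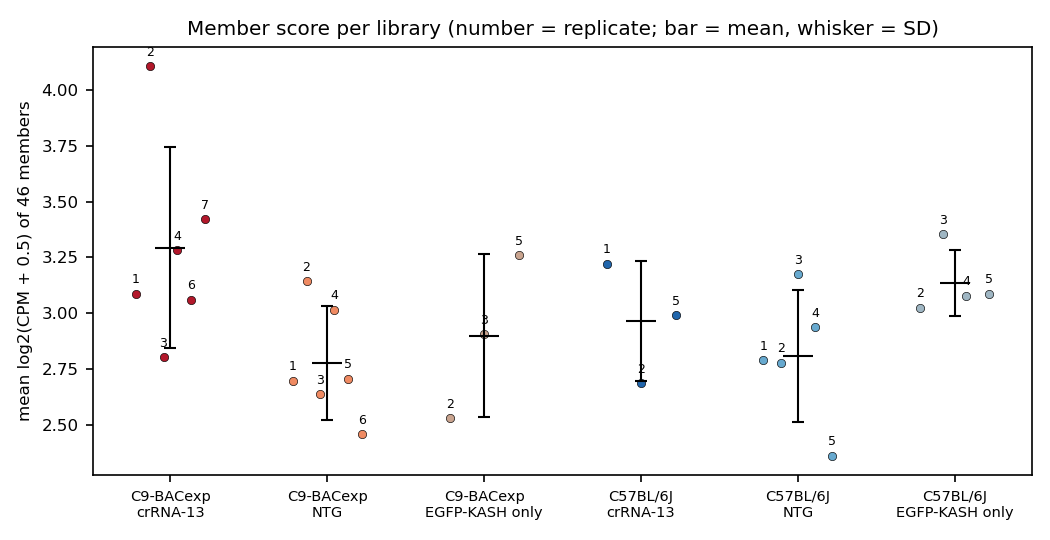
Score of the 46 members (mean log2(CPM + 0.5), vertical axis) in each of 27 libraries, by group, with replicate numbers, group mean (bar) and SD (whisker). C9-BACexp mice with crRNA-13 average 3.29 and those with NTG 2.78, and replicate 2 with crRNA-13 reaches 4.11.

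**Figure D2:**
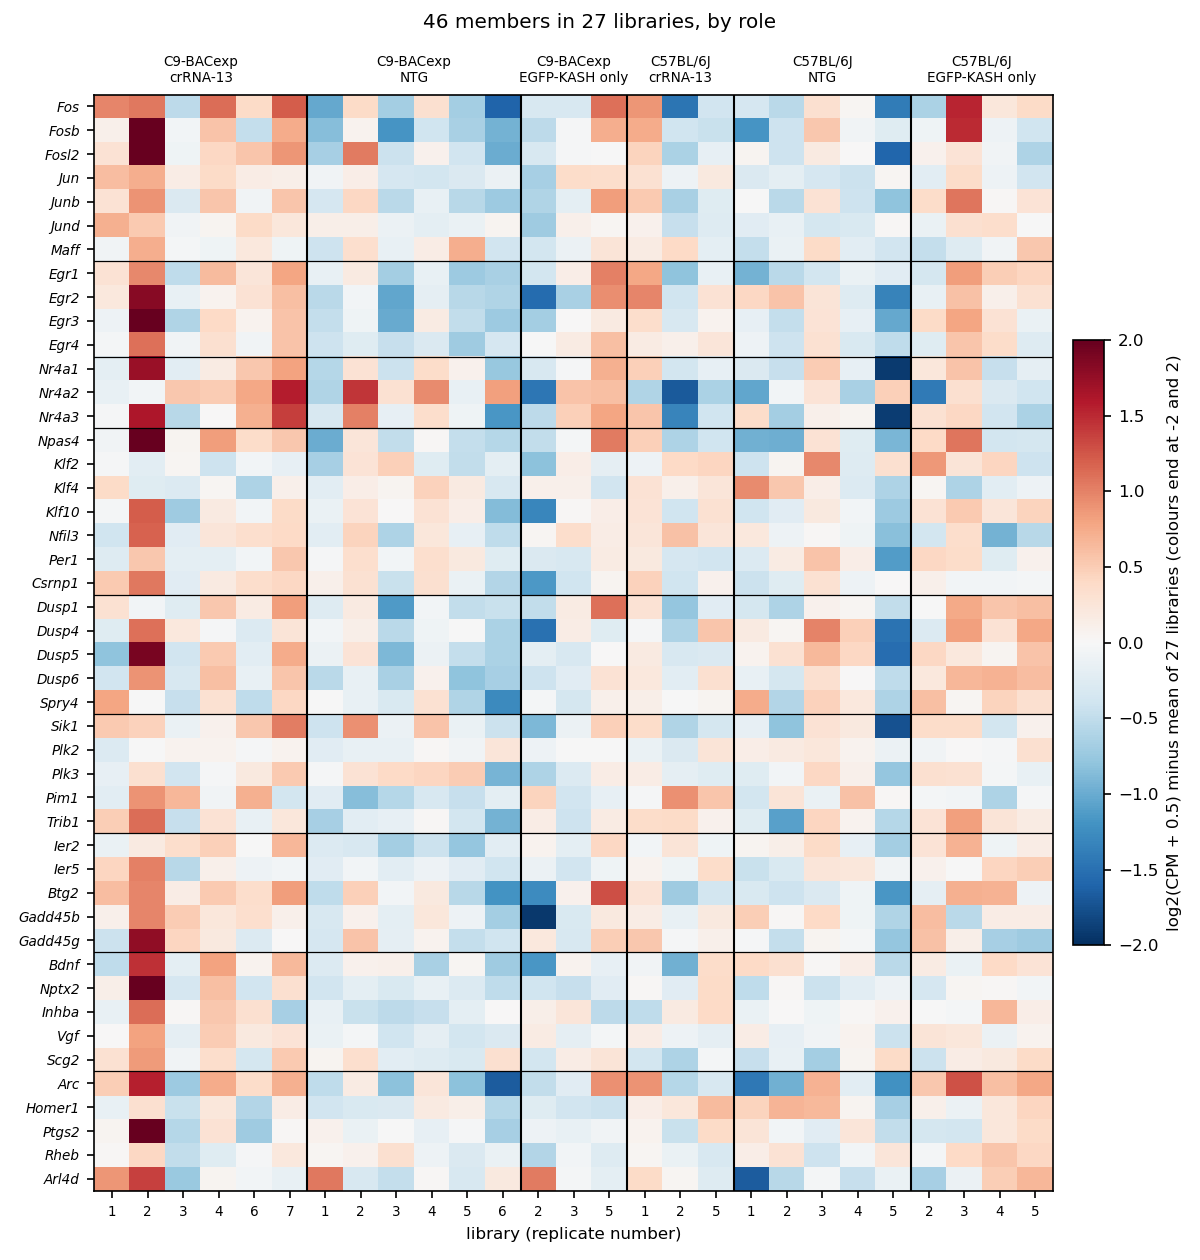
Level of each member (rows, by role) in each library (columns, by group) as log2(CPM + 0.5) minus its mean over the 27 libraries. Many members are high together in replicate 2 of the C9-BACexp crRNA-13 mice and low together in replicate 5 of the C57BL/6J NTG mice.

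The first comparison asked what targeting the repeat RNA did to these genes in C9-BACexp mice, with crRNA-13 set against NTG. Of the 46 members, 42 had a positive log2 fold change and 4 a negative one, with a median of 0.60 against -0.03 over all genes tested. At an unadjusted p under 0.05 there were 27 members, all higher with crRNA-13, which is 58.7% of them against 10.1% of all genes. The members moved together between libraries of a group (median correlation of pairs 0.37, described further on). The 27 are therefore not separate pieces of evidence. The full test (edgeR's quasi-likelihood test with 4 factors of unwanted variation, fold change over 1.2 and adjusted p under 0.05) was passed by 5 members: Vgf, Npas4, Fosb, Jun and Ier2. Called refers to this test throughout, unless another tool is named. All 5 rose, where 0.234% of all genes were called higher and 0.469% in either direction. The p-values are adjusted over 5 comparisons together, and adjusted within this comparison alone none of the 5 was called (adjusted p = 0.154 for Vgf to 0.207 for Ier2). Without the factors edgeR called none of them, nor any member in any of the 11 comparisons made, while 27 members again had an unadjusted p under 0.05, all higher, against 5.28% of all genes, with a median of 0.67. Leaving out replicate 2 of the crRNA-13 mice kept the direction at a smaller size, with 38 of 46 members positive, a median of 0.40 and 18 members at an unadjusted p under 0.05, all higher, against 11.2% of all genes. In that set the only member called was Ier2 (adjusted p = 0.0495), and with neither the library nor the factors 14 members were at p under 0.05, all higher, with a background of 5.01%. Over the 12 fits that each left out 1 library of the pair, 0 to 7 members were called and 18 to 31 were at an unadjusted p under 0.05, all higher. No member was called without NTG replicate 3, NTG replicate 5 or crRNA-13 replicate 4. Vgf was called in 8 of these fits, and Npas4, Fosb, Jun and Ier2 in 4 each. Besides the 3 libraries just named, the call of Vgf was lost without crRNA-13 replicate 2, and those of Npas4 and Fosb without crRNA-13 replicate 2 or 7 or NTG replicate 1, 4 or 6. That of Jun was lost without crRNA-13 replicate 1 or 2 or NTG replicate 1, 4 or 6, and that of Ier2 without crRNA-13 replicate 3 or 7 or NTG replicate 2, 4 or 6.

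Among the AP-1 subunits, 6 of 7 had an unadjusted p under 0.05 and 2 were called. Fosb, whose stable splice product accumulates with repeated stimulation, had a lowest, median and highest level of 1.08, 2.32 and 23.2 CPM in C9-BACexp mice with crRNA-13, against 0.469, 0.813 and 1.82 CPM with NTG. The 23.2 CPM was replicate 2 alone, and the other 5 libraries, at 1.08 to 3.19 CPM, overlapped the NTG range. The fitted log2 fold change of Fosb was 1.80 ± 0.47 (SE, adjusted p = 0.0431), and 1.23 ± 0.47 without replicate 2 (adjusted p = 0.187). Jun, the main partner of the FOS proteins, had 4.31, 4.82 and 6.78 CPM with crRNA-13 against 2.93, 3.35 and 4.31 CPM with NTG, so that the groups met only at their edges. Its log2 fold change was 0.60 ± 0.16 (adjusted p = 0.0468), and 0.51 ± 0.16 without replicate 2 (adjusted p = 0.0929). Fos itself had 1.53, 5.37 and 6.26 CPM with crRNA-13 against 0.456, 1.32 and 3.29 CPM with NTG. Here replicate 2, at 5.53 CPM, was not the highest library, and 4 of the 6 crRNA-13 libraries lay well above every NTG library. A further crRNA-13 library, replicate 6, was level with the highest NTG library, replicate 2. Fos had a log2 fold change of 1.45 ± 0.55 and did not pass the adjusted test (adjusted p = 0.188).

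The 4 EGR zinc fingers had log2 fold changes of 0.78 to 1.58, each with an unadjusted p under 0.05, and none was called by edgeR. DESeq2 called all 4 with the factors and Egr3 without them. With neither the factors nor replicate 2 the unadjusted p was 0.119 for Egr2 and 0.0492 for Egr3. Egr4 had 1.89, 2.30 and 4.87 CPM with crRNA-13 against 1.03, 1.44 and 1.63 CPM with NTG, and every crRNA-13 library lay above every NTG library. Such separation was seen in 2 members, Egr4 and Ier2, and in 0.115% of all genes. Egr4 had a log2 fold change of 0.93 ± 0.25 (adjusted p = 0.0536). Egr1, the EGR protein most used as an activity marker, had 20.8, 41.4 and 57.9 CPM with crRNA-13 against 17.6, 22.6 and 33.5 CPM with NTG. Its log2 fold change was 0.78 ± 0.26 (adjusted p = 0.125), with 5 of 6 crRNA-13 libraries above every NTG library. Egr3 rested more on replicate 2, which had 141 CPM where the other 5 had 11.9 to 27.6 CPM and the NTG libraries 8.86 to 20.6 CPM.

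Of the remaining transcription factors, Npas4, a neuron-specific factor induced by calcium alone, had 33.3, 48.3 and 223 CPM with crRNA-13 against 17.3, 24.9 and 41.5 CPM with NTG. Again the highest value was replicate 2, and 4 of the 6 crRNA-13 libraries exceeded all NTG libraries. The log2 fold change of Npas4 was 1.15 ± 0.30 (adjusted p = 0.0424), and 0.77 ± 0.26 without replicate 2 (adjusted p = 0.14). The NR4A nuclear receptors differed among themselves. Nr4a1 had 67, 100 and 257 CPM with crRNA-13 against 45.7, 70.0 and 99.9 CPM with NTG, a log2 fold change of 0.67 ± 0.25 (adjusted p = 0.179) that was 0.40 ± 0.23 without replicate 2. Nr4a2, in contrast, had a log2 fold change of 0.0048 ± 0.37. Klf2, Klf4 and Per1 had log2 fold changes of -0.03, -0.44 and -0.0043, each smaller than its SE. Klf2 and Klf4 were present at few counts, 311 and 223 in total over the 27 libraries.

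Ier2 had 0.664, 1.04 and 1.53 CPM with crRNA-13 against 0.247, 0.489 and 0.608 CPM with NTG, with no overlap. Its log2 fold change was 1.21 ± 0.32 (adjusted p = 0.0494), and replicate 2, at 0.953 CPM, was not among its highest libraries. Ier2 is present at few counts, and the adjusted p lies at the threshold. Within the same role list (growth arrest and small nuclear proteins), 4 of 5 members had an unadjusted p under 0.05. Of the MAPK feedback genes, the phosphatases Dusp1, Dusp5 and Dusp6 had an unadjusted p under 0.05, with log2 fold changes of 0.69, 0.71 and 0.71, while Dusp4 and Spry4, at 0.44 and 0.43, did not. None of these 5 was called by edgeR, and DESeq2 with the factors called Dusp6. Of the kinases and the pseudokinase, Pim1 (1.22 ± 0.36) and Trib1 (0.67 ± 0.23) reached that level on the log2 scale, whereas Sik1, Plk2 and Plk3 were at 0.38, 0.04 and -0.07.

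Among the secreted factors 4 of 5 members had an unadjusted p under 0.05. Vgf, the precursor of several neuropeptides, had 25.6, 34.3 and 51.6 CPM in C9-BACexp mice with crRNA-13, against 21.9, 24.6 and 28.5 CPM with NTG. Replicate 2 was highest and 5 of 6 crRNA-13 libraries lay above every NTG library. Vgf had the smallest p of the 46 members, with a log2 fold change of 0.53 ± 0.12 (adjusted p = 0.0241), and 0.41 ± 0.11 without replicate 2 (adjusted p = 0.061). Bdnf, the neurotrophin that strengthens synapses, had 9.26, 17.7 and 37.9 CPM with crRNA-13 against 8.02, 12.4 and 14.4 CPM with NTG. Its log2 fold change was 0.65 ± 0.25 (adjusted p = 0.185), with the groups overlapping at their low end. Nptx2, which clusters AMPA-type glutamate receptors, had 207 CPM in replicate 2 against 9.72 to 19.8 CPM in the other 5 crRNA-13 libraries and 8.93 to 11.5 CPM with NTG. The gene-level counts do not separate the promoters of Bdnf.

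Of the synaptic and other effectors only Arc had an unadjusted p under 0.05. Arc, which takes part in removing AMPA receptors from synapses, had 20.2, 51.6 and 100 CPM with crRNA-13 against 10.3, 21.3 and 40.2 CPM with NTG. In all, 5 of 6 crRNA-13 libraries lay above every NTG library, and the log2 fold change was 1.02 ± 0.35 (adjusted p = 0.142). Homer1, a postsynaptic scaffold, had 169, 253 and 315 CPM with crRNA-13 against 170, 205 and 285 CPM with NTG, a log2 fold change of 0.14 ± 0.19 (adjusted p = 0.789). Only the short Homer1 transcript is known as activity-induced, and the counts pool it with the long constitutive ones.

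Set beside all 6 groups, the C9-BACexp NTG libraries were low for several of these members. Ier2 averaged 1.06 ± 0.33 CPM with crRNA-13, 0.449 ± 0.15 CPM with NTG and 0.888 ± 0.3 CPM with EGFP-KASH only in C9-BACexp mice (SD, n = 6, 6 and 3). In C57BL/6J mice it averaged 0.82 ± 0.18, 0.765 ± 0.32 and 1.06 ± 0.36 CPM with the same treatments (SD, n = 3, 5 and 4). The C9-BACexp NTG mean of Ier2 was thus the lowest of the 6, and its crRNA-13 mean was level with that of C57BL/6J mice with EGFP-KASH only. Egr4 had the same lowest group, at 1.4 ± 0.21 CPM, against 2.75 ± 1.17 CPM with crRNA-13 and 1.73 to 2.55 CPM as means of the other groups. Arc averaged 54 ± 26.1 CPM in C9-BACexp mice with crRNA-13, 25 ± 11.7 CPM with NTG and 39 ± 22.1 CPM with EGFP-KASH only. In C57BL/6J mice Arc averaged 37.6 ± 22.3, 25.5 ± 17.8 and 60.4 ± 15.1 CPM, so that its highest group was C57BL/6J with EGFP-KASH only. Vgf, in contrast, was highest in C9-BACexp mice with crRNA-13 (36.2 ± 9.37 CPM) and lay between 24.8 and 31.6 CPM as means of the other 5 groups. Npas4 was also highest there, at 75.4 ± 72.9 CPM, against 25.3 to 43.9 CPM as means elsewhere, with the SD set by replicate 2. No test was made of these orders beyond the comparisons described here.

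**Figure D3:**
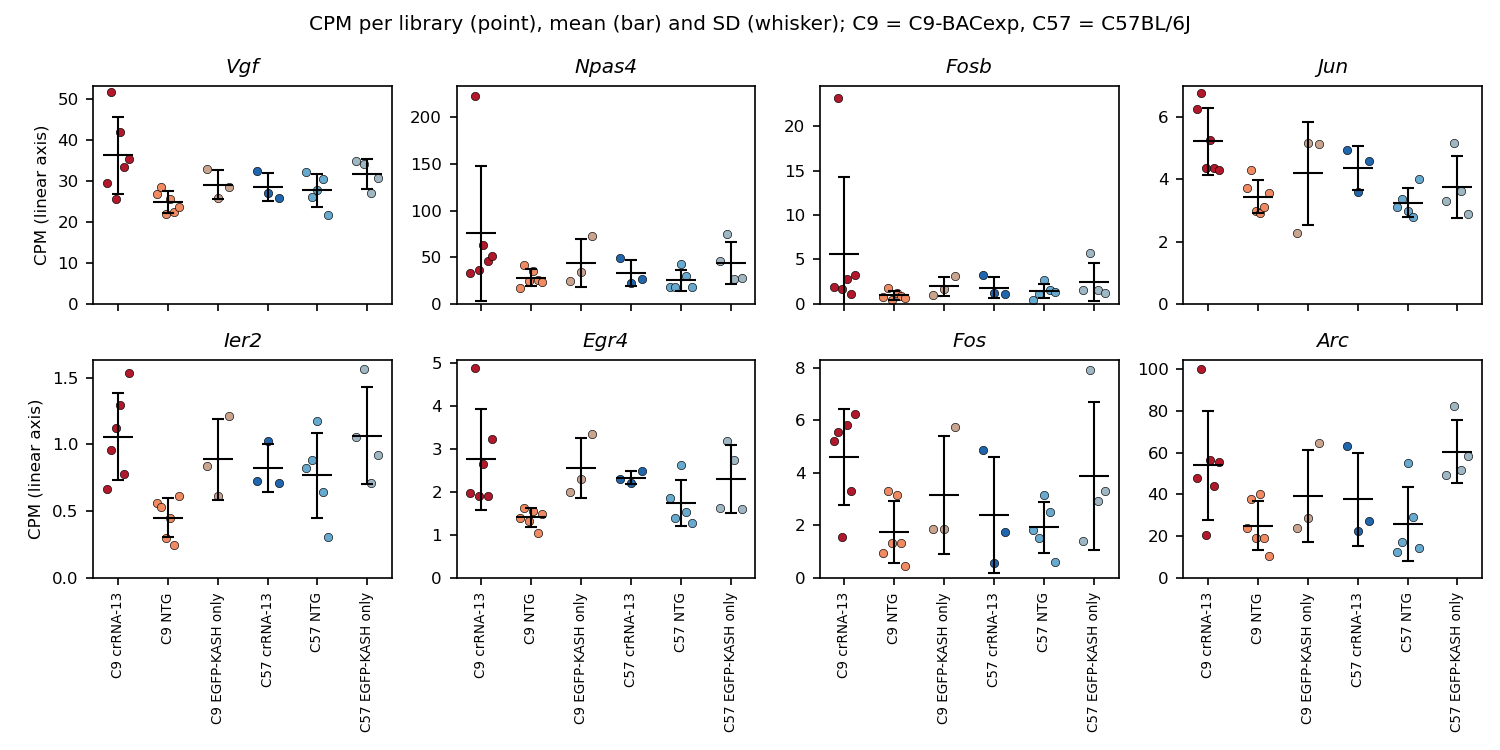
CPM of 8 members (linear axes from 0) in each library, by genotype and treatment, with group mean (bar) and SD (whisker, cut at 0). In C9-BACexp mice, Egr4 and Ier2 do not overlap between crRNA-13 and NTG, and the single high point of Npas4 (223 CPM) and Fosb (23.2 CPM) is replicate 2.

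**Figure D4:**
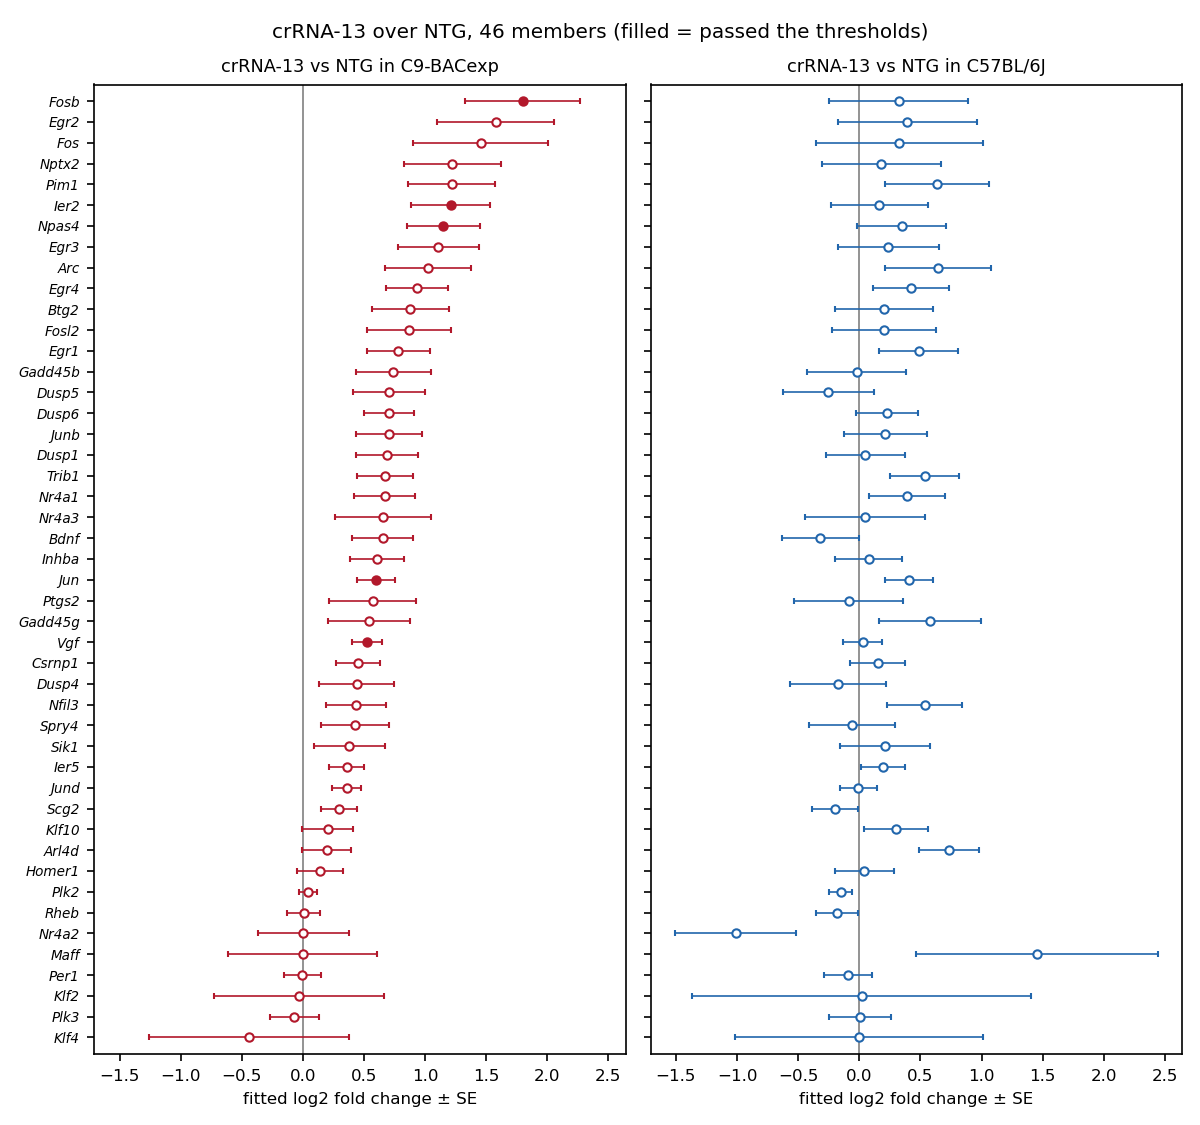
Fitted log2 fold change of crRNA-13 over NTG (horizontal axis, with SE) for the 46 members in C9-BACexp mice (left) and C57BL/6J mice (right), ordered by the C9-BACexp value. Filled points passed the thresholds, which 5 members did in C9-BACexp mice and 0 in C57BL/6J mice.

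Other measures moved with these libraries. Replicate 2 of the C9-BACexp crRNA-13 mice also had the most EGFP-KASH transcript (110 CPM, against 24.9 to 59.1 CPM in the other 5 crRNA-13 libraries and 38.2 to 61.4 CPM with NTG). The list of 8 interferon-stimulated genes summed to 1.89 to 54.2 CPM with crRNA-13, with replicate 2 highest, against 2.16 to 4.79 CPM with NTG. Striatal projection neurons are a type found below the cortex. Their markers summed to 1448 to 3265 CPM with crRNA-13 against 1104 to 7835 CPM with NTG. The highest NTG library, replicate 6, had the lowest score of its group, whereas the highest crRNA-13 library, replicate 2, had the highest score. Upper-layer neuron markers summed to 384 to 862 CPM with crRNA-13, with replicate 2 lowest, against 487 to 635 CPM with NTG. Deep-layer neuron markers summed to 473 to 706 CPM with crRNA-13, with replicate 2 highest, against 557 to 720 CPM with NTG. Oligodendrocyte markers summed to 373 to 2673 CPM against 644 to 1652 CPM, and excitatory neuron markers to 1139 to 1592 CPM against 1224 to 1537 CPM. Inhibitory neuron markers summed to 417 to 631 CPM with crRNA-13 against 588 to 789 CPM with NTG, with 5 of 6 crRNA-13 libraries below every NTG library, and 3 of the 8 genes were lower at an unadjusted p under 0.05. Astrocyte markers summed to 540 to 802 CPM against 491 to 646 CPM, and 3 of the 6 genes were higher at that level. No gene of these lists was at 0 throughout a group. Without NTG replicate 6, 28 members had an unadjusted p under 0.05, and 1, Vgf, was called. The part of these differences in the members' levels was not tested.

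In C57BL/6J mice, which lack the human gene that crRNA-13 targets, crRNA-13 was compared with NTG in the same way. At the stricter limits set for this comparison no member was called by edgeR, DESeq2 or limma. Of all genes edgeR called 0.0% and limma none, whereas DESeq2 called 140 higher and 42 lower with the factors, and 1 higher and 1 lower without them. Of 46 members 1 had an unadjusted p under 0.05, against 11% of all genes, namely Arl4d, a small GTPase (log2 fold change 0.74 ± 0.25, adjusted p = 0.223). Positive log2 fold changes were found for 33 members, with a median of 0.19. Jun, at 4.95, 3.59 and 4.58 CPM with crRNA-13 against 3.10, 3.37, 3.00, 2.78 and 4.02 CPM with NTG, came next (0.41 ± 0.20, adjusted p = 0.458). Vgf and Npas4 had log2 fold changes of 0.03 and 0.35.

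Whether the guide's effect differed between genotypes was tested as an interaction. No member passed (0.00459% of all genes did, by edgeR), and 2 had an unadjusted p under 0.05 against 10.4% of all genes. These were Vgf, at 0.50 ± 0.20 on the log2 scale (adjusted p = 0.377), and Bdnf, at 0.97 ± 0.40 (adjusted p = 0.387). The term was positive for 38 of 46 members, with a median of 0.49, and for 32 members with a median of 0.24 without replicate 2 of the C9-BACexp crRNA-13 mice. Thus a difference between genotypes in the response of single members was not shown. DESeq2 with and without the factors also called no member here, and neither did limma.

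Mice with EGFP-KASH only provide a reference without an effector, at an age and dose not given. In C9-BACexp mice 44 of 46 members had a higher level with crRNA-13 than with EGFP-KASH only, with a median log2 fold change of 0.39. There were 8 members at an unadjusted p under 0.05, all higher, which is 17.4% against 12.1% of all genes, and 2 were called where 0.873% of all genes were. Leaving out single libraries gave 3 to 13 members at that level and medians of 0.21 to 0.61, with the fewest members without EGFP-KASH-only replicate 2. Gadd45b, which takes part in activity-dependent DNA demethylation, had 1.53, 1.80 and 3.23 CPM (lowest, median, highest) with crRNA-13 against 0, 1.04 and 1.67 CPM with EGFP-KASH only (log2 fold change 2.57 ± 0.49, adjusted p = 0.00646). The library at 0 was replicate 2, with 3 members at 0, and without it the log2 fold change of Gadd45b was 0.56 ± 0.40 and not called (adjusted p = 0.588). Csrnp1, a nuclear protein induced by AXIN1, had 7.65, 12 and 19.5 CPM with crRNA-13 against 3.80, 6.77 and 9.49 CPM, a log2 fold change of 0.91 ± 0.23 (adjusted p = 0.0323) that was 0.57 ± 0.27 without the same library (adjusted p = 0.34). The call of Csrnp1 was also lost without EGFP-KASH-only replicate 3 or crRNA-13 replicate 2. DESeq2 without factors made neither call, and adjusted within the comparison alone the p was 0.0587 for Gadd45b and 0.105 for Csrnp1.

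NTG against EGFP-KASH only gave no called member in C9-BACexp mice (0.0322% of all genes called, by edgeR) and 6 members at an unadjusted p under 0.05 (13%, background 11%). Egr4 had 1.03 to 1.63 CPM with NTG against 2, 2.30 and 3.34 CPM with EGFP-KASH only, and Ier2 0.247 to 0.608 CPM against 0.839, 0.612 and 1.21 CPM, so that the NTG libraries of both members lay below all 3 others. These are the members whose crRNA-13 libraries lay above the same NTG libraries, and the NTG libraries enter both comparisons. Of the 21768 genes tested, 228 had every NTG library below all 3 EGFP-KASH-only libraries. Egr4 had a log2 fold change of -0.86 ± 0.30 (adjusted p = 0.283). In C57BL/6J mice the same comparison gave 11 members at an unadjusted p under 0.05, all lower with NTG (23.9%, against 7.78% of all genes), with 39 of 46 members negative and a median of -0.28. No member was called, and no gene was by edgeR (0.0%) or limma, while DESeq2 called 35 genes higher and 24 lower with the factors, and 8 and 13 without. By edgeR without factors 6 members were at an unadjusted p under 0.05. Arc led, with 12.2, 17.1, 55.1, 29.0 and 14.2 CPM with NTG against 49.4, 82.4, 51.7 and 58.3 CPM with EGFP-KASH only (log2 fold change -1.43 ± 0.41, adjusted p = 0.491). Only NTG replicate 3, at 55.1 CPM, reached the EGFP-KASH-only range of Arc. Arl4d (-0.77 ± 0.23, adjusted p = 0.491) followed. In the same C57BL/6J mice crRNA-13 gave, over EGFP-KASH only, no called member (0.404% of all genes) and 6 at an unadjusted p under 0.05 (background 11.2%), with 11 of 46 positive and a median of -0.20. Rheb, a GTPase that activates mTOR, had -0.47 ± 0.18 (adjusted p = 0.308) and Nfil3, a repressor linked to the circadian clock, 0.78 ± 0.32 (adjusted p = 0.363). DESeq2 and limma called no member in these 3 comparisons.

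**Figure D5:**
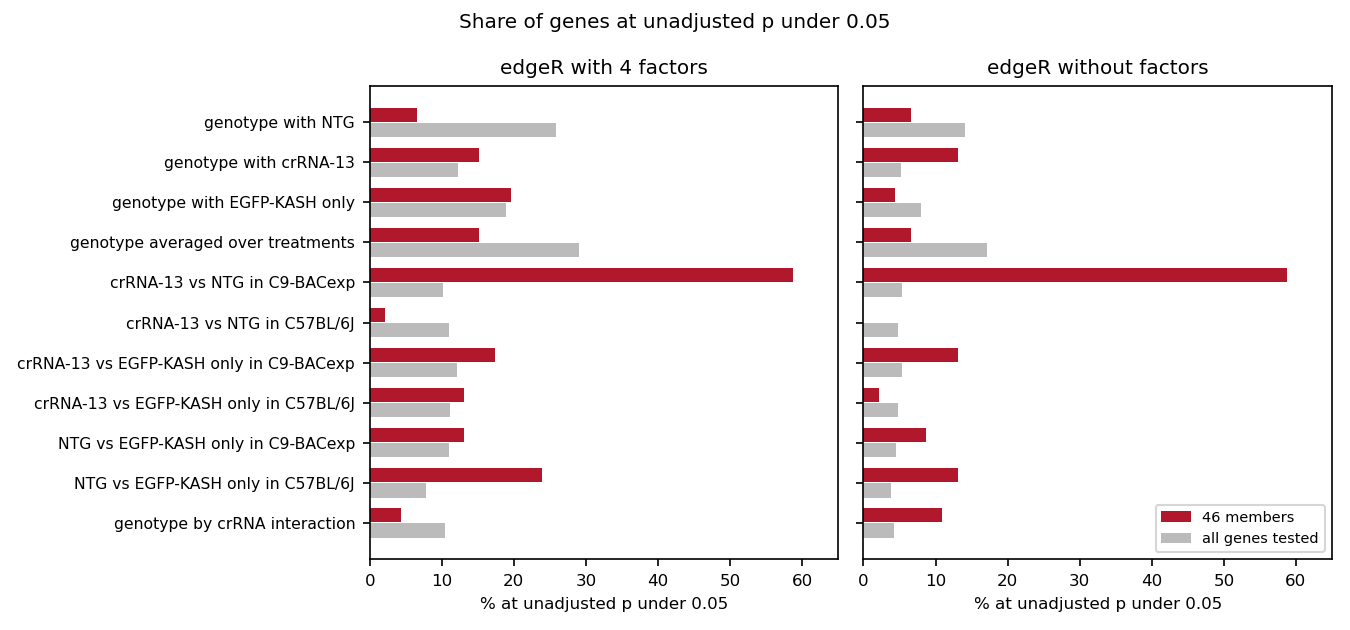
Percent of the 46 members and of all genes tested at an unadjusted p under 0.05 (horizontal axis) in 11 comparisons, with 4 factors (left) and without (right). In C9-BACexp mice crRNA-13 against NTG gives 58.7% of the members in both fits, against 10.1% and 5.28% of all genes. The members are not independent of each other.

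The genotypes were compared within each treatment, C9-BACexp against C57BL/6J. With NTG no member was called, by edgeR, where 6.45% of all genes were, and 3 members (6.52%) had an unadjusted p under 0.05 against 25.9% of all genes. Arl4d led (0.71 ± 0.21, adjusted p = 0.0842), followed by Pim1, a survival kinase (-0.90 ± 0.37, adjusted p = 0.226). DESeq2 with the factors called Arl4d, and limma none. The score differed by -0.03 between the genotypes with NTG. With crRNA-13, again no member was called (1.02% of all genes), while 7 had an unadjusted p under 0.05, all higher in C9-BACexp mice (background 12.2%), and 39 of 46 were positive with a median of 0.36, or 31 with a median of 0.15 without replicate 2 of the crRNA-13 C9-BACexp libraries. The 7 members became 3 to 16 when single libraries were left out, with the fewest without C57BL/6J replicate 2. Jund, an AP-1 subunit that is expressed also at rest, had 0.55 ± 0.15 (adjusted p = 0.0552), and Scg2, a secretory granule protein, 0.67 ± 0.19 (adjusted p = 0.0584). DESeq2 with the factors called Jund, Nr4a2 and Scg2, and limma Jund.

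With EGFP-KASH only, 9 members had an unadjusted p under 0.05, all lower in C9-BACexp mice (19.6%, against 18.9% of all genes), and 35 of 46 were negative with a median of -0.31. The share is thus near the background. Without C9-BACexp replicate 2 it fell to 3 members, and leaving out single libraries gave 3 to 12 members and medians of -0.53 to -0.13. Gadd45b fell, at 0, 1.04 and 1.67 CPM in C9-BACexp mice against 2.40, 0.805, 1.61 and 1.60 CPM in C57BL/6J mice (log2 fold change -2.21 ± 0.51, adjusted p = 0.0214), where 2.74% of all genes were called. The ranges overlap, and without replicate 2 of the C9-BACexp mice the value was -0.23 ± 0.42 (adjusted p = 0.872). The call was also lost without C57BL/6J replicate 2 or 5. Rheb came next and was called by DESeq2 with the factors but not by edgeR (-0.64 ± 0.18, adjusted p = 0.063). No member was called here by edgeR with the factors left out, and 2 were at an unadjusted p under 0.05.

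Averaged over the 3 treatments, 3 members were called between the genotypes, where 9.7% of all genes were, and 7 had an unadjusted p under 0.05 against 29.1% of all genes. Nr4a2, a nuclear receptor also needed for dopamine neurons, was higher in C9-BACexp mice (log2 fold change 0.85 ± 0.27, adjusted p = 0.0339). Its levels were 12 ± 5.98, 11.8 ± 6.02 and 8.47 ± 5.23 CPM in C9-BACexp mice with crRNA-13, NTG and EGFP-KASH only (SD, n = 6, 6 and 3), against 3.80 ± 1.56, 7 ± 3.02 and 5.91 ± 2.88 CPM in C57BL/6J mice (SD, n = 3, 5 and 4). With crRNA-13 all 6 C9-BACexp libraries of Nr4a2 lay above all 3 C57BL/6J libraries. Such separation was seen in 1 member and in 0.9% of all genes. Homer1 was lower in C9-BACexp mice (-0.46 ± 0.13, adjusted p = 0.0224), with 245 ± 60.6, 222 ± 46.3 and 198 ± 13.1 CPM against 321 ± 60.3, 313 ± 102 and 285 ± 44.9 CPM. Both genotypes' Homer1 libraries overlapped in the guide groups and were apart with EGFP-KASH only. With EGFP-KASH only, 5 members (Ier5, Dusp5, Klf10, Homer1 and Rheb) had every C9-BACexp library below every C57BL/6J library. Of the 21768 genes tested, 615 did. Klf2, a factor best known from endothelial cells, was also lower (-1.31 ± 0.43, adjusted p = 0.0433), at 0 to 0.724 CPM against 0.157 to 1.21 CPM, near the limit that a count of 0 allows. Leaving out single libraries ended the call of Klf2 in 18 of 27 fits, that of Nr4a2 in 6 and that of Homer1 in 4. For Homer1 these were EGFP-KASH-only replicate 5 of either genotype and, in C57BL/6J mice, NTG replicate 2 and crRNA-13 replicate 5. For Nr4a2 they were C9-BACexp EGFP-KASH-only replicates 3 and 5 and crRNA-13 replicate 7, and C57BL/6J EGFP-KASH-only replicate 4 and crRNA-13 replicates 2 and 5. DESeq2 without factors also called Nr4a2 and Homer1, and without the factors the adjusted p by edgeR was 0.0833 for Nr4a2, 0.0675 for Homer1 and 0.29 for Klf2. Cell type markers also differed between the genotypes in this comparison. In C9-BACexp mice all 6 oligodendrocyte markers and 4 of 8 striatal markers were called higher, and 3 of 6 endothelial, 5 of 6 astrocyte, 3 of 6 upper-layer and 6 of 8 interferon-stimulated genes lower. The endothelial markers had a median log2 fold change of -0.73. Deep-layer neuron markers summed to 557 to 720 CPM in C9-BACexp mice with NTG against 319 to 512 CPM in C57BL/6J mice with NTG. With crRNA-13 and with EGFP-KASH only, the ranges of the genotypes overlapped for these markers. The part of the cell type markers in the levels of Nr4a2, Homer1 and Klf2 was not tested.

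Related genes outside the group were read from lists of other activity-induced genes and of the signalling that reaches immediate early genes. In C9-BACexp mice with crRNA-13 against NTG, 1 of 23 tested activity-induced genes was called, Fbxo33, a subunit of a ubiquitin ligase (0.41 ± 0.09, adjusted p = 0.0218, and 0.508 without the factors), with 6 at an unadjusted p under 0.05 and a median of 0.24. Of the 37 signalling genes none was called by edgeR, 2 were higher and 4 lower at an unadjusted p under 0.05, and the median was -0.0054. Fbxo33 was also lower in C9-BACexp than in C57BL/6J mice with NTG (-0.61 ± 0.10, adjusted p = 0.00175, and 0.273 without the factors). Against EGFP-KASH only, Srf, the factor of the serum response element, was higher with crRNA-13 (0.53 ± 0.12, adjusted p = 0.0228), as was the histone deacetylase Hdac4 (0.30 ± 0.08, adjusted p = 0.0475), and without the factors neither was called (adjusted p = 0.59 and 0.592). Between the genotypes, averaged over treatments, 5 signalling genes were lower and 1 higher in C9-BACexp mice. Creb1, which encodes CREB, was lower by a log2 fold change of -0.49 ± 0.08 (adjusted p = 3.07e-04), and Mef2c, an activity-dependent factor of excitatory neurons, by -0.37 ± 0.05 (adjusted p = 4.2e-05). Without the factors both kept an adjusted p under 0.05, at 0.033 and 0.0253. Hdac5, a repressor of MEF2, was higher (0.34 ± 0.05, adjusted p = 6.12e-05, and 0.2 without the factors), and of the other activity-induced genes Bhlhe40 was lower (-0.50 ± 0.11, adjusted p = 0.0034, and 0.0208 without the factors). Rgs4 was also lower and Penk higher, with adjusted p of 0.159 and 0.0984 without the factors. Penk is also a marker of the striatal projection neurons.

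Between libraries of the same group the members moved together. Over the 1035 pairs of members, the median correlation of log2(CPM + 0.5) after removing group means was 0.37, and 34.2% of the pairs exceeded 0.5. Members with all other tested genes gave a median of 0.01 and 2.86%. Without replicate 2 of the C9-BACexp crRNA-13 mice the median over pairs was 0.31. These correlations over 27 libraries share library and depth, and are a description. Egr3 (r = 0.91 with the mean of the other members), Klf10 (0.90) and Nr4a1 (0.88) followed the rest most closely, whereas Pim1 (-0.17), Inhba (-0.01) and Klf2 (0.03) had the lowest values. The spread within groups was largest for Fosb, Nptx2 and Fos (SD 0.88, 0.81 and 0.80 on the log2 scale) and smallest for Plk2, Vgf and Jund (0.16, 0.23 and 0.26). Vgf, with its small spread, passed the test at a log2 fold change of 0.53 in C9-BACexp mice with crRNA-13 against NTG, and Fos, with its large one, did not at 1.45. Plk2, a kinase that weakens overactive synapses, had 46.8 to 59.8 CPM in C9-BACexp mice with crRNA-13 against 48.6 to 67.5 CPM with NTG, and varied little in any group.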

How the data were processed

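RNA of EGFP-KASH+ nuclei was depleted of ribosomal RNA and sequenced as single-end reads. The authors quantified it with Salmon 1.10.0 against spliced and unspliced mouse transcripts plus human C9ORF72 and EGFP-KASH, and summed it to genes with tximport in R 4.3.1, so the deposited values are expected counts scaled for transcript length and library size. These were rounded to whole numbers, and genes passing edgeR's filterByExpr (smallest count 10, smallest total 15) were tested. The fit was edgeR's quasi-likelihood test (edgeR 4.0.16, R 4.3.3) on 6 groups with 4 factors of unwanted variation from the residuals (RUVr), TMM normalisation, fold change over 1.2 and Benjamini-Hochberg adjusted p under 0.05. On simulated data with a shared hidden factor this fit called many unchanged genes, which the fit without factors did not, so its adjusted p-values can be too small, and the fit without factors is given beside the calls. P-values of 5 comparisons were adjusted together, and the contrast of both guides in C57BL/6J mice used 1.25 and 0.01. DESeq2 1.42.0 and limma 3.58.1 were alternatives. CPM are TMM-scaled. The depth of 21508829 to 36777972 counts per library limits members under 1 CPM most.

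The 46 members, the other lists and the alternatives were chosen with earlier results of these data known. Members described in full were up to 6 called per comparison by p, or the 2 with the smallest p where none was called, with Fos, Arc, Npas4, Egr1, Nr4a1, Bdnf and Homer1 throughout and the 3 of largest and 3 of smallest spread. Of the other lists, up to 3 called genes per comparison with the smallest p were named. Other members named with values were chosen after their values were seen. Promoter windows and start sites came from GRCm39. The labels do not say whether replicate numbers pair libraries across groups. Over 48 same-numbered pairs the median correlation of deviations was -0.0024, with 11 pairs over 0.1. The highest was 0.356, for replicate 1 of the C9-BACexp NTG and crRNA-13 mice. A median cannot tell whether some numbers are paired.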

Additional observations from a re-analysis of the deposited data

Results flagged for a closer look

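The members described in full, other than Nptx2 and Plk2, and the score were examined in the larger groups for a library far from the others. Of these 92 combinations 8 stood out, and 4 of the 8 were in replicate 2 of the C9-BACexp crRNA-13 mice. The high value of Nptx2 in the same library, given above, was outside this examination and is not among the 8. A chance rate of about 1 in 20 would hold for independent combinations. These are not independent, since the members were partly chosen by p in these data and move together within a library. In that library Npas4 had 222.71 CPM against 33.3 to 63.4 in the other 5, and Fosb had 23.234 CPM against 1.08 to 3.19. Likewise Nr4a1 had 257.37 CPM against 67 to 137, and Nfil3 had 10.958 CPM against 3.35 to 6.16. Arl4d had 9.4556 CPM in replicate 1 of the C9-BACexp NTG mice, against 2.94 to 4.98 in the other 5. Among C57BL/6J mice with EGFP-KASH only, Pim1 was low in replicate 4 (0.35502 CPM, against 0.762 to 0.787), Fosb was high in replicate 3 (5.6755 CPM, against 1.17 to 1.58) and Csrnp1 was high in replicate 2 (9.7751 CPM, against 8.68 to 8.79).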

How the results depend on the processing

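Without the factors edgeR called 0 members in each comparison, against 5 for crRNA-13 over NTG in C9-BACexp mice, 2 for crRNA-13 over EGFP-KASH only in C9-BACexp mice, 1 for genotype with EGFP-KASH only and 3 for genotype averaged over treatments with them. DESeq2 with the factors called 12, 5, 2 and 3 members in these comparisons, 1 for genotype with NTG and 3 for genotype with crRNA-13. DESeq2 without factors called 3, 0, 0 and 2 in the same 4. With no filter on low counts crRNA-13 over NTG gave 2 members and the averaged genotype 1. Adjusting within each comparison alone gave 0 for crRNA-13 over NTG, 0 for crRNA-13 over EGFP-KASH only and 1 for genotype with NTG, and limma gave 1 for genotype with crRNA-13. The replicate block gave 0 for crRNA-13 over NTG with and without the factors, 1 and 0 for crRNA-13 over EGFP-KASH only, and 0 without the factors for genotype with EGFP-KASH only and for the averaged genotype. Whether same-numbered libraries share more than the number is not stated in the labels. With a pseudocount of 1 the score of C57BL/6J mice with EGFP-KASH only was 3.2967. Of the results for counts and scores, 80 stayed within their limits and 25 moved under these alternatives. The 80 include counts of 0 called members that stayed at 0. The tally therefore says little about how stable the calls were. The cause of the moves was not tested.

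Leaving out 1 library at a time gave 0 to 7 called members for crRNA-13 over NTG in C9-BACexp mice, 0 to 7 for the averaged genotype, 0 to 3 for crRNA-13 over EGFP-KASH only in C9-BACexp mice, 0 to 2 for genotype with EGFP-KASH only, 0 to 2 with crRNA-13 and 0 to 1 with NTG, and 0 in the other 5 comparisons. Gadd45b for NTG over EGFP-KASH only in C9-BACexp mice, 1.83 on the log2 scale, was -0.15 without EGFP-KASH-only replicate 2, and ranged to 2.90 without others. Chosen after seeing the data, the fit without factors and without replicate 2 of the C9-BACexp crRNA-13 mice gave 14 members at an unadjusted p under 0.05, against 27.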
